A study of Saccharomyces cerevisiae with 22 samples.

Results

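The genes described here make vitamin B6 and thiamine in Saccharomyces cerevisiae: the vitamin B6 genes SNZ1 and SNO1, and THI11, THI4, THI20 and THI2 of the thiamine pathway. They are 6 of the 6388 gene probes on a yeast expression array, 1 probe a gene. Probes were taken by gene symbol, and the genes were chosen with their changes in these mutants already in view. Changes of the 6 genes between a mutant and its control are therefore given as a description, with standard errors and without p-values.

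Expression was measured on 22 two-colour arrays, 2 cultures (a and b) for each of 11 strains. Of the mutants, 6 have 1 amino acid of histone H3 changed to alanine in the gene HHT2 (Q5A, R40A, G44A, R53A, N108A, L109A) and 3 in histone H4 in HHF2 (K44A, V81A, Y98A); the controls hht2-wt (for H3) and hhf2-wt (for H4) are labelled as carrying the unmutated gene. Each array set RNA of 1 strain against 1 common wild-type pool, labelled BY4742 like the strains, and per the labels the strain was labelled with Cy3 for culture a and with Cy5 for culture b. The labels do not say whether a strain is 1 clone. A level below is the log2 ratio of strain over reference on 1 array, and a change is the log2 fold change of a mutant over the control of its own histone, ± SE, with 2 cultures on each side.

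Some facts of the whole series bear on these values. The series text gives the opposite dye order for the first hybridisation, so the direction of every level and change rests on the labels. The strains, controls included, differed from the reference at marker genes: URA3 read 3.66 to 4.56 and was higher on all 22 arrays, CAN1, MET17 and TRP1 were lower on all 22, and the a-cell gene STE2 had a median of 4.56, although BY4742 is known as an alpha strain without URA3. Levels against the reference therefore compare strains of different background, and the controls are the comparison for each histone change. In Y98A all 7 a-cell marker genes were lower than in hhf2-wt, with a median change of -3.49, and in V81A 6 of 7 were, with a median of -1.11. The 4 alpha-cell marker genes were below the reference on all 22 arrays, Y98A included, where STE3 read -3.76 and -3.73. Their median change was -0.04 in Y98A, with 0 called higher and 1 lower, and -0.04 in V81A, with 0 called. HIS3, a histidine synthesis gene used as a marker, read -2.23 and -1.97 in Y98A and 0.02 and 0.40 in V81A, against 1.49 and 1.41 in hhf2-wt. Its change by limma was -3.55 ± 0.14 in Y98A (adjusted p = 4.97e-10), -1.24 ± 0.14 in V81A (adjusted p = 7.56e-06) and -0.40 ± 0.14 in G44A (adjusted p = 0.0312). Y98A and V81A are thus set apart from hhf2-wt at a marker and at mating-type genes as well as at the histone residue, and the part of these differences in the values below was not tested. HHT2, the gene mutated in the H3 strains, fell in R53A (-1.39 ± 0.14, limma adjusted p = 0.00026). Genes of chromosome XIV had a median change of 0.39 in K44A and 0.72 in V81A. In G44A the medians were 0.18 for chromosome I and 0.19 for chromosome VIII. None of the 6 genes lies on these chromosomes, but THI12, a relative of THI11, lies on chromosome XIV. Each of the 6 genes was above background on 22 of 22 arrays and saturated on 0.

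Yeast makes pyridoxal 5'-phosphate, the active form of vitamin B6, with an enzyme built from a synthase subunit of the SNZ family and a glutaminase subunit of the SNO family that feeds it ammonia. SNZ1 and SNO1 are neighbours read in opposite directions, and are known as genes induced when cells approach stationary phase. Thiamine is put together from a pyrimidine and a thiazole made separately, and its diphosphate is a cofactor of pyruvate decarboxylase and transketolase. Thiamine in the medium normally keeps this pathway low, through the regulators Thi2, Thi3 and Pdc2.

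SNZ1, the synthase subunit of vitamin B6 synthesis, had a change above 1 on the log2 scale in 6 of the 9 mutants, and its highest values in the H4 mutants Y98A and V81A. Its levels in cultures a and b were 2.69 and 2.75 in Y98A, 2.51 and 2.66 in V81A and 2.004 and 1.923 in K44A, against 0.86 and 0.55 in hhf2-wt. Among H3 mutants they were 2.27 and 2.42 in N108A, 2.13 and 2.54 in G44A, 2.19 and 1.91 in R40A, 1.08 and 1.22 in Q5A, 0.94 and 1.01 in R53A and 0.45 and 0.44 in L109A, against 0.55 and 0.83 in hht2-wt. Thus every culture of 8 mutants lay above both cultures of its control, while both L109A cultures lay below theirs. As changes, SNZ1 read 2.02 ± 0.13 in Y98A, 1.88 ± 0.13 in V81A, 1.66 ± 0.13 in N108A, 1.65 ± 0.13 in G44A, 1.36 ± 0.13 in R40A and 1.26 ± 0.13 in K44A. The highest of these is a 4.05-fold difference. The other 3 mutants had smaller values, 0.46 ± 0.13 in Q5A, 0.29 ± 0.13 in R53A and -0.24 ± 0.13 in L109A. SNZ1 was 2nd from the top of all 6388 probes in R40A, N108A and V81A, and 4th in Y98A.

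In the order of mean levels of SNZ1, Y98A (2.72) stood above V81A (2.58), N108A (2.35), G44A (2.33), R40A (2.05) and K44A (1.96), then Q5A (1.15), R53A (0.98), hhf2-wt (0.70), hht2-wt (0.69) and L109A (0.45). N108A and G44A overlapped in their cultures, as did G44A and R40A, R40A and K44A, and the 2 controls. The widest step lay between K44A and Q5A, at 0.81. The strain signal of the SNZ1 probe was 452 to 5094 over the arrays.

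SNO1, the glutaminase partner of SNZ1, followed nearly the same order and was the gene with the highest change of all probes in Y98A. Its levels were 2.82 and 2.70 in Y98A, 2.32 and 2.22 in V81A and 1.54 and 1.48 in K44A, against 0.39 and 0.50 in hhf2-wt. In H3 mutants SNO1 read 1.59 and 1.89 in G44A, 1.43 and 1.58 in N108A, 1.67 and 1.25 in R40A, 0.94 and 1.08 in Q5A, 0.67 and 0.62 in R53A and 0.07 and 0.06 in L109A, against 0.33 and 0.28 in hht2-wt. Again both cultures of 8 mutants were above both of the control, and L109A was below. The changes of SNO1 were 2.31 ± 0.12 in Y98A (4.97-fold), 1.83 ± 0.12 in V81A, 1.43 ± 0.12 in G44A, 1.20 ± 0.12 in N108A, 1.16 ± 0.12 in R40A and 1.07 ± 0.12 in K44A. Q5A, at 0.71 ± 0.12, had a larger change in SNO1 than in SNZ1, and SNO1 ranked 8th of all probes there. R53A read 0.34 ± 0.12 and L109A -0.24 ± 0.12 in SNO1.

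The mean levels of SNZ1 and SNO1 over the 11 strains had a correlation of 0.96. These points share the reference, the arrays and, for the mutants, the controls, so the value is a description. The genes on either side of the pair on chromosome XIII, CTF13 (a kinetochore subunit) and MTG1 (a mitochondrial GTPase), had changes of -0.25 to 0.19 in all 9 mutants. Of these, limma called MTG1 in Q5A (0.19 ± 0.06, adjusted p = 0.0395) and in K44A (-0.20 ± 0.06, adjusted p = 0.0234) and did not call CTF13.

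**Figure D1:**
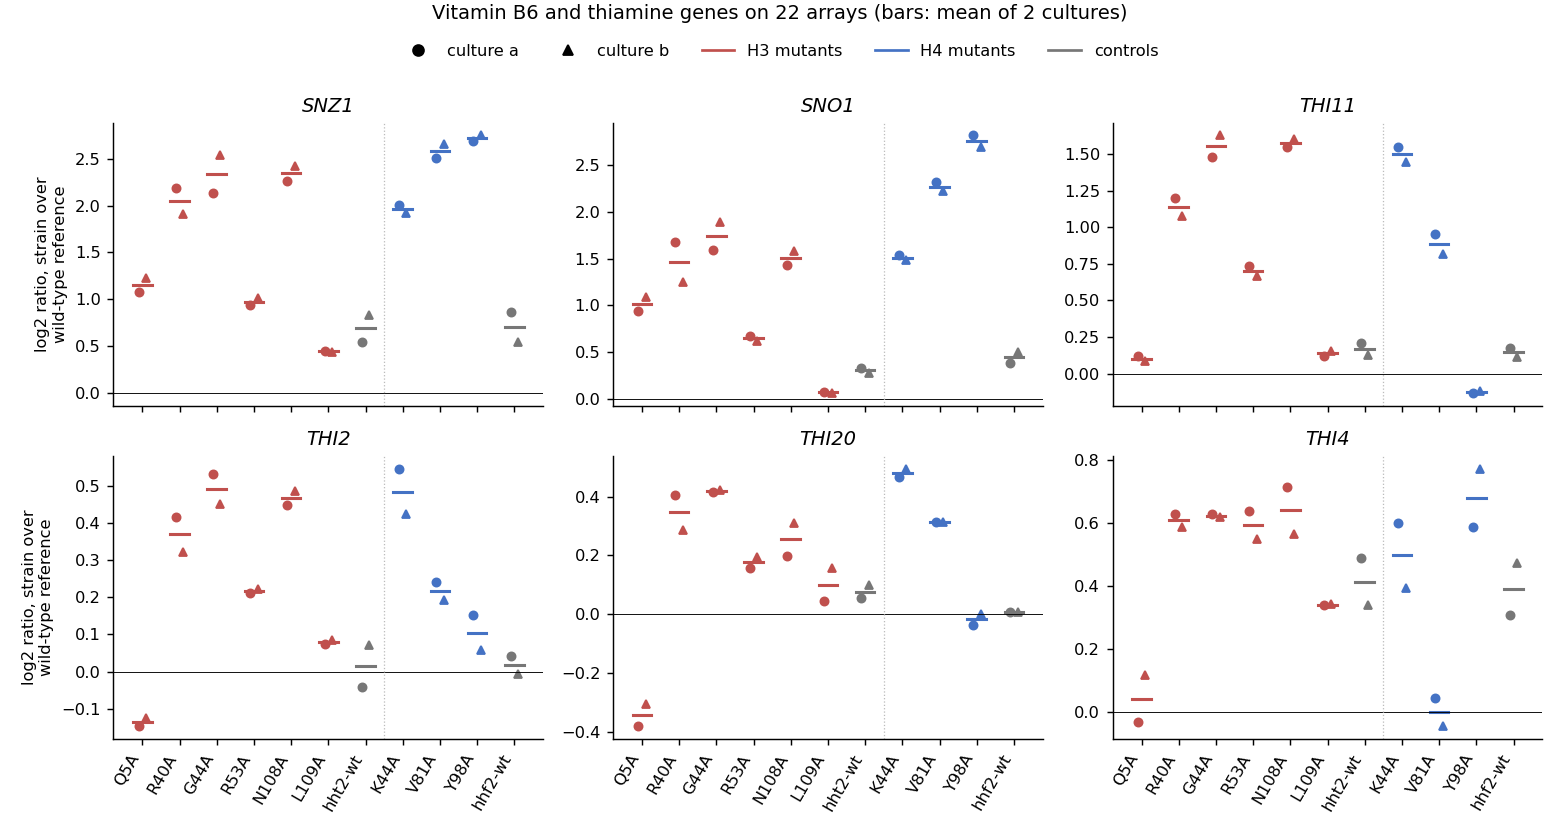
Levels of the 6 genes on the 22 arrays: each point is the log2 ratio of strain over wild-type reference of 1 culture, bars are means of 2 cultures, and each panel has its own vertical scale. SNZ1 and SNO1 are highest in Y98A and V81A, while THI11 is highest in N108A, G44A and K44A and lowest in Y98A.

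THI11, one of the near-identical THI5-family genes that make the pyrimidine part of thiamine, was high in some of the same mutants but not in Q5A or Y98A. Its levels were 1.55 and 1.60 in N108A, 1.48 and 1.63 in G44A, 1.20 and 1.08 in R40A, 0.74 and 0.67 in R53A, 0.12 and 0.16 in L109A and 0.12 and 0.09 in Q5A, against 0.21 and 0.13 in hht2-wt. In H4 mutants THI11 read 1.55 and 1.45 in K44A, 0.95 and 0.82 in V81A and -0.13 and -0.12 in Y98A, against 0.18 and 0.12 in hhf2-wt. The cultures of N108A, G44A, R40A, R53A, K44A and V81A were above their controls, those of Q5A and Y98A below, and those of L109A overlapped those of hht2-wt. The changes of THI11 were 1.41 ± 0.06 in N108A, 1.38 ± 0.06 in G44A, 1.35 ± 0.06 in K44A, 0.97 ± 0.06 in R40A, 0.74 ± 0.06 in V81A and 0.53 ± 0.06 in R53A. They were -0.03 ± 0.06 in L109A, -0.07 ± 0.06 in Q5A and -0.27 ± 0.06 in Y98A, the mutant in which SNO1 and SNZ1 had their highest values. Without the loess step, with arrays centred on their medians, the Y98A value of THI11 no longer passed the threshold.

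By mean level of THI11, N108A (1.58), G44A (1.55) and K44A (1.50) came first and overlapped as neighbours, followed by R40A (1.14), V81A (0.89) and R53A (0.70), each clear of the next. The controls hht2-wt (0.17) and hhf2-wt (0.15) and L109A (0.14) overlapped as neighbours, with Q5A (0.10) and Y98A (-0.12) below them. In R53A 43 of all probes passed the threshold, and THI11 was the 1 among the 6 genes that did. The genes were chosen with this contrast in view, so nothing is read from that pass. THI5, THI12 and THI13, the relatives of THI11, were not matched to a named probe, and whether their RNA reaches the THI11 probe was not tested. THI12 lies on chromosome XIV, which had a median change of 0.39 in K44A and 0.72 in V81A. Its part in the THI11 values of these mutants was not tested. On chromosome X, the neighbour AAD10, a putative aryl-alcohol dehydrogenase gene, fell in Q5A (-0.60 ± 0.12, limma adjusted p = 0.00367) and in Y98A (-0.46 ± 0.12, limma adjusted p = 0.0114) and reached 0.31 at most. HXT16, of the hexose transporter family, on the other side of THI11 had changes of -0.16 to 0.17, none of them called by limma.

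THI4, which makes the thiazole part of thiamine in a reaction that consumes the enzyme itself, did not share the order of THI11. Its levels were -0.03 and 0.12 in Q5A, 0.63 and 0.59 in R40A, 0.63 and 0.62 in G44A, 0.64 and 0.55 in R53A, 0.71 and 0.56 in N108A and 0.34 and 0.34 in L109A, against 0.49 and 0.34 in hht2-wt. In H4 mutants THI4 was at 0.60 and 0.39 in K44A, 0.04 and -0.04 in V81A and 0.59 and 0.77 in Y98A, against 0.31 and 0.47 in hhf2-wt. Q5A and V81A were low, and K44A and L109A overlapped their controls. The changes of THI4 that passed the threshold were -0.37 ± 0.09 in Q5A, -0.39 ± 0.09 in V81A and 0.29 ± 0.09 in Y98A. The Q5A call needed both Q5A a and hht2-wt a, the V81A call was lost without hhf2-wt b, and the Y98A call without Y98A b or hhf2-wt a, where the change was 0.17 and 0.18. The other 6 mutants read between -0.07 in L109A and 0.23 in N108A.

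THI20, a kinase of the pyrimidine precursor, had small changes in both directions. It was at -0.38 and -0.31 in Q5A, 0.41 and 0.29 in R40A, 0.42 and 0.42 in G44A, 0.16 and 0.20 in R53A, 0.20 and 0.31 in N108A and 0.05 and 0.16 in L109A, against 0.06 and 0.10 in hht2-wt. For H4, THI20 read 0.47 and 0.49 in K44A, 0.31 and 0.31 in V81A and -0.04 and 0.00 in Y98A, against 0.01 and 0.01 in hhf2-wt. Both Q5A cultures lay below both of the control, with a change of -0.42 ± 0.05 in THI20. The changes of THI20 were 0.47 ± 0.05 in K44A, 0.34 ± 0.05 in G44A, 0.31 ± 0.05 in V81A, 0.27 ± 0.05 in R40A and 0.18 ± 0.05 in N108A. The R40A call was lost without R40A a, and the N108A call without N108A b, hht2-wt a or hht2-wt b. R53A, L109A and Y98A lay between -0.02 and 0.10 in THI20.

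THI2, the zinc-finger activator of thiamine genes, had its highest levels in the same mutants as THI11, with smaller changes. It was at -0.15 and -0.13 in Q5A, 0.42 and 0.32 in R40A, 0.53 and 0.45 in G44A, 0.21 and 0.22 in R53A, 0.45 and 0.49 in N108A and 0.07 and 0.08 in L109A, against -0.04 and 0.07 in hht2-wt. THI2 read 0.55 and 0.42 in K44A, 0.24 and 0.19 in V81A and 0.15 and 0.06 in Y98A, against 0.04 and -0.01 in hhf2-wt. Both Q5A cultures were below both of the control and both cultures of each other mutant were above. The changes of THI2 past the threshold were 0.48 ± 0.06 in G44A, 0.47 ± 0.06 in K44A, 0.45 ± 0.06 in N108A, 0.35 ± 0.06 in R40A and 0.20 ± 0.06 in V81A, the last of which was lost without V81A a or hhf2-wt b. Over the 11 strain means THI2 had a correlation of 0.94 with THI11 and 0.91 with THI20, and THI11 and THI20 had 0.83. The correlation of THI11 with SNZ1 was 0.53, and THI4 had 0.14 to 0.56 with the other 5 genes; these describe the same 11 points.

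Counted by mutant, 5 of the 6 genes passed the threshold of a limma adjusted p below 0.05 over all probes in R40A, G44A, N108A and K44A, all 5 of them higher (THI4 was the one that did not). All 6 passed in V81A, with THI4 lower, and 4 in Y98A, with THI11 lower. Q5A had 4, with THI4 and THI20 lower and SNZ1 and SNO1 higher, and the SNZ1 call was lost without Q5A a, Q5A b or hht2-wt a. R53A had 1 and L109A 0. Of all 6388 probes, 14.7% passed in R40A, 46.3% in G44A, 28.6% in N108A, 29.5% in K44A, 33.9% in V81A, 30.6% in Y98A, 18.9% in Q5A, 0.673% in R53A and 0.0626% in L109A. These contrasts are the ones the genes were chosen on, so nothing is read from their counts. The 2 cultures of a mutant did not overlap the 2 of its control for 6 of the 6 genes in all mutants except K44A, with 5, and L109A, with 3. Among all probes the share without overlap was 51.2% in Q5A, 45.1% in R40A, 60.5% in G44A, 32.3% in R53A, 55.2% in N108A, 25.7% in L109A, 59% in K44A, 59.9% in V81A and 57.3% in Y98A.

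**Figure D2:**
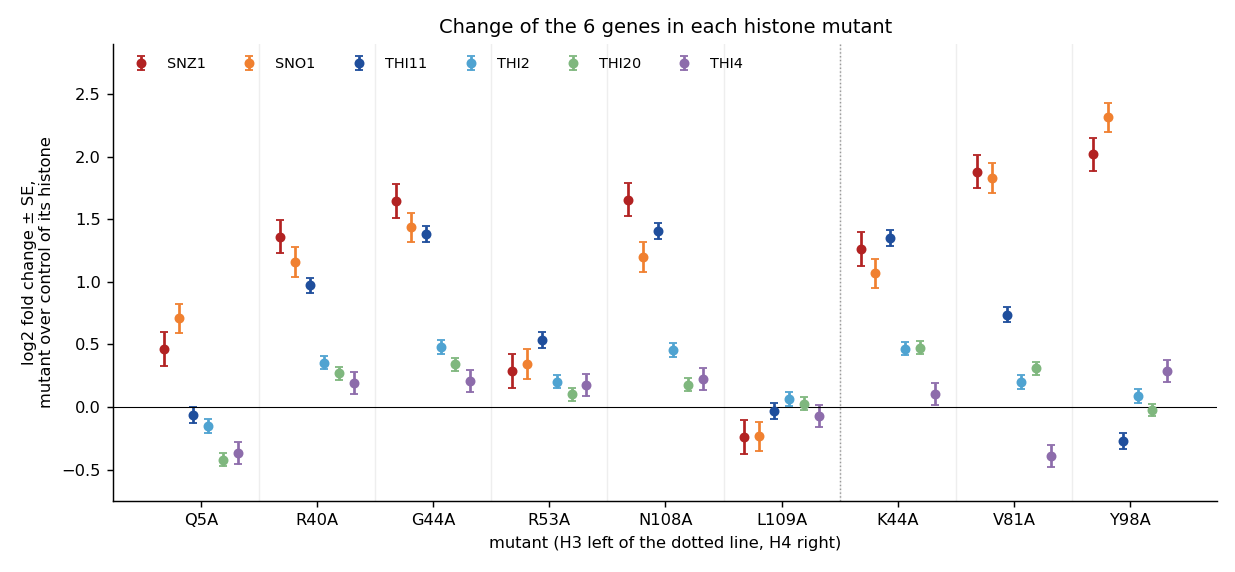
Changes of the 6 genes in the 9 mutants, as log2 fold change over the control of the same histone, with 2 cultures on each side. Points are fitted values and bars standard errors of the limma fit to all 22 arrays. A gene therefore has the same bar in every mutant. Y98A has SNO1 at 2.31 and THI11 at -0.27, while G44A has both above 1.38.

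The comparison of the 2 controls was not among the contrasts the genes were chosen on, so its adjusted p is printed. The control arrays did enter those contrasts, so the result is a description only. The log2 difference of hht2-wt over hhf2-wt was between -0.14 ± 0.12 for SNO1 and 0.07 ± 0.05 for THI20, and limma gave an adjusted p = 0.999813 for each of the 6. Among all probes 0 passed between the controls (0%), and 70 had an unadjusted p below 0.05. The sample titles carry a number of unstated meaning, which is 1 for both controls, R53A, L109A and Y98A and 2 for the other 6 mutants. Mean levels of SNZ1 were 0.45 to 2.72 in the strains with number 1 and 1.15 to 2.58 in those with number 2, so Y98A gave the highest level within the number of the controls. Mean levels of THI11 were -0.12 to 0.70 with number 1 and 0.10 to 1.58 with number 2. Number and residue cannot be told apart for the 4 H3 mutants and 2 H4 mutants with number 2.

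Mutants were also set against each other within a histone, again as a description for the 6 genes. Of all probes, 24.9% passed between N108A and L109A, 20.9% between R40A and G44A, 40% between V81A and Y98A and 44.1% between K44A and V81A. N108A and L109A replace adjacent residues of H3. N108A was higher than L109A by 1.90 ± 0.13 in SNZ1, which was the highest difference of all probes, by 1.43 ± 0.12 in SNO1, by 1.44 ± 0.06 in THI11, and by 0.15 to 0.39 in THI2, THI4 and THI20. R40A was below G44A by 0.41 ± 0.06 in THI11, and SNZ1 differed there by -0.29 ± 0.13 and SNO1 by -0.28 ± 0.12. V81A was above Y98A in THI11 by 1.01 ± 0.06 and in THI20 by 0.33 ± 0.05, but below it in THI4 by 0.68 ± 0.09 and in SNO1 by 0.49 ± 0.12. K44A was below V81A in SNO1 by 0.76 ± 0.12 and in SNZ1 by 0.62 ± 0.13, and above it in THI11 by 0.61 ± 0.06 and in THI4 by 0.50 ± 0.09. SNZ1 differed between V81A and Y98A by only -0.14 ± 0.13.

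The other genes of both pathways, taken from a list of 24 by symbol, gave 19 measured genes on 20 probes, of which 6 probes belong to vitamin B6 and 14 to thiamine. SNZ2, SNO3, THI5, THI12 and THI13 were not matched to a named probe. Of the 20 probes, 12 rose and 4 fell in G44A, 10 rose and 2 fell in N108A, 9 rose and 1 fell in K44A and 7 rose and 0 fell in R40A, by a limma adjusted p below 0.05. The balance was the other way in Y98A, with 3 higher and 11 lower, in V81A, with 2 and 6, and in Q5A, with 1 and 6. R53A and L109A had 0 of 20 by limma, and 5 and 1 at an unadjusted p below 0.05. Over all probes the shares higher and lower were 23.9% and 22.4% in G44A, 16.6% and 12% in N108A, 15.9% and 13.6% in K44A, 9.8% and 4.95% in R40A, 13.9% and 16.7% in Y98A, 16.8% and 17.1% in V81A and 7.7% and 11.2% in Q5A. They were 0.579% and 0.0939% in R53A, and 0% and 0.0626% in L109A. The median change of the 20 probes was 0.26 in G44A, 0.18 in R40A, 0.17 in N108A, 0.12 in K44A, 0.08 in R53A, 0.01 in L109A, -0.07 in V81A, -0.11 in Q5A and -0.22 in Y98A, where the median of all probes was -0.02 to 0.00 in each. The count was 4 in place of 7 for Q5A without Q5A a, Q5A b or hht2-wt a, 6 in place of 12 for N108A without hht2-wt a, and 5 or 6 in place of 10 for K44A without any 1 of its 4 cultures.

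SNZ3, a close relative of SNZ1, was lowest in Y98A and Q5A, where SNZ1 was above its control, and high in G44A and K44A as THI11 was. Its levels were -0.81 and -0.75 in Q5A, 0.99 and 0.97 in R40A, 1.45 and 1.44 in G44A and 0.92 and 0.85 in N108A, against 0.36 and 0.29 in hht2-wt. In H4 mutants SNZ3 was at 1.37 and 1.47 in K44A, 0.53 and 0.50 in V81A and -1.27 and -0.91 in Y98A, against 0.24 and 0.37 in hhf2-wt. By limma SNZ3 fell in Y98A (-1.39 ± 0.09, adjusted p = 3.64e-08) and in Q5A (-1.11 ± 0.09, adjusted p = 2.11e-06). It rose in G44A (1.12 ± 0.09, adjusted p = 3.21e-07), K44A (1.11 ± 0.09, adjusted p = 9.53e-07), R40A (0.66 ± 0.09, adjusted p = 0.000202) and N108A (0.56 ± 0.09, adjusted p = 0.000414), and read 0.21 in V81A without passing. V81A was above Y98A in SNZ3 by 1.60 ± 0.09 (limma adjusted p = 5.34e-09). The correlation over 11 strain means was 0.85 between SNZ3 and THI11 and 0.13 between SNZ3 and SNZ1.

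SNO2, a relative of SNO1, was likewise lowest in Y98A and Q5A. It was at -1.31 and -0.99 in Y98A, against 0.30 and 0.30 in hhf2-wt, and at -0.60 and -0.50 in Q5A, against 0.20 and 0.38 in hht2-wt. SNO2 fell in Y98A (-1.45 ± 0.08, limma adjusted p = 9.95e-09) and Q5A (-0.84 ± 0.08, limma adjusted p = 1.43e-05), and rose in K44A (0.58 ± 0.08, limma adjusted p = 8.96e-05), with 0.31 to 0.34 in R40A, G44A and N108A. Those smaller calls of SNO2 were lost without R40A a, either hht2-wt culture or the dye term in R40A, and without N108A a or hht2-wt a in N108A. Its chromosome, XIV, had a median change of 0.39 in K44A, where SNO2 rose. In V81A that median was 0.72, and SNO2 read -0.21 there and was not called. SNZ2, which had no named probe, also lies on chromosome XIV. Whether RNA of SNZ2, SNZ3, SNO2 and SNO3 reaches one another's probes was not tested. The part of that chromosome in the SNZ3 values of K44A and V81A was not tested either.

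**Figure D3:**
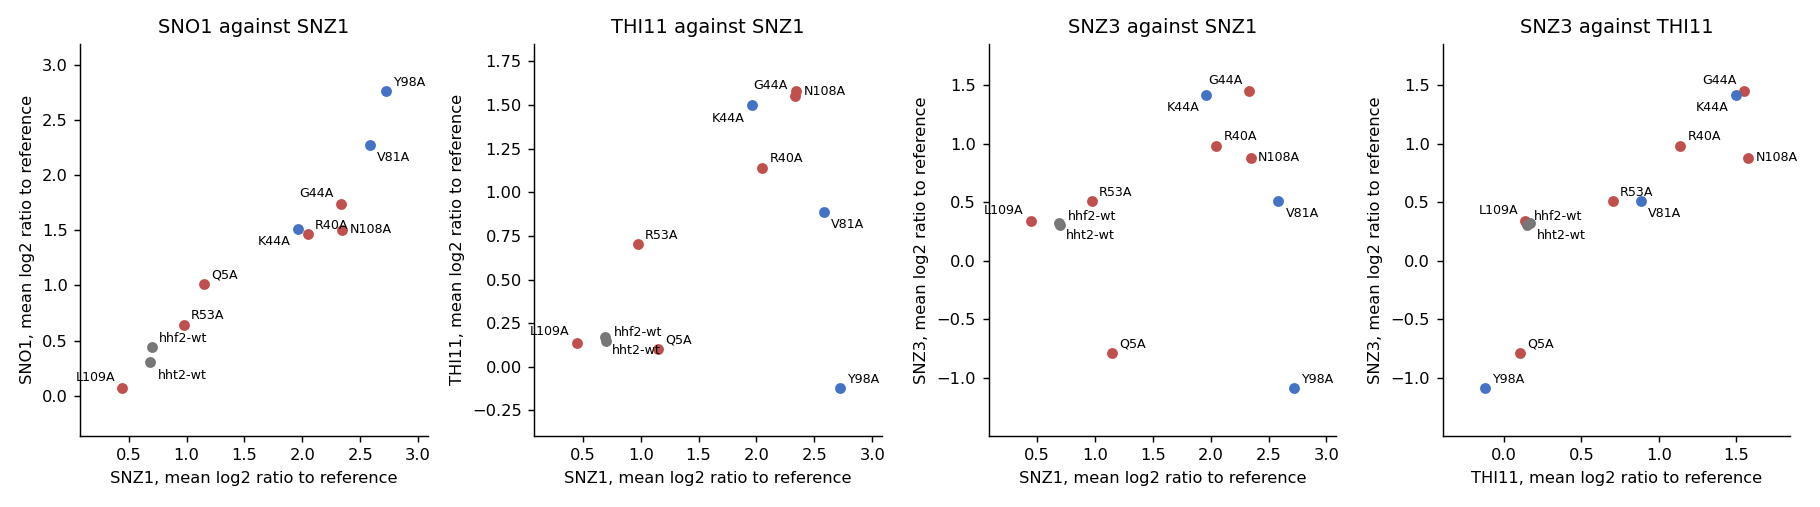
Mean levels of pairs of genes in the 11 strains, each point the mean log2 ratio of 2 cultures of 1 strain to the reference (red, H3 mutants; blue, H4 mutants; grey, controls). SNO1 follows SNZ1 closely, whereas Y98A and Q5A are low in SNZ3 at high or middle levels of SNZ1, and SNZ3 lies nearer a line with THI11.

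Of the remaining vitamin B6 genes, PDX3, the oxidase that forms pyridoxal phosphate, rose in Q5A (0.50 ± 0.08, limma adjusted p = 0.000379), and in G44A (0.38 ± 0.08, limma adjusted p = 0.00104). PDX3 was also called at 0.23 in N108A, which was lost without N108A a or hht2-wt a, and at 0.27 in Y98A, which was lost without any 1 of the 4 cultures. BUD17, a putative pyridoxal kinase on chromosome XIV, rose in V81A (0.87 ± 0.08, limma adjusted p = 4.14e-07) and K44A (0.52 ± 0.08, limma adjusted p = 0.000149), where that chromosome as a whole had medians of 0.72 and 0.39, and also in Y98A (0.37 ± 0.08, limma adjusted p = 0.00197), where the chromosome's median was 0.01. BUD16, a pyridoxal kinase, fell in G44A (-0.31 ± 0.06, limma adjusted p = 0.000946), and in Q5A and Y98A it read -0.24 and -0.22. These last 2 calls of BUD16 were lost without Q5A a, Q5A b or hht2-wt a, and without Y98A a or hhf2-wt b. TPN1, the pyridoxine transporter, was not called in any of the 9 mutants.

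The thiamine transporter gene THI7 and its relative THI72 rose in R40A, G44A and N108A. THI72 rose in G44A (0.69 ± 0.06, limma adjusted p = 1.23e-06), R40A (0.63 ± 0.06, limma adjusted p = 1.52e-05), N108A (0.38, a call lost with median centring) and K44A (0.30). THI7, the plasma membrane thiamine transporter, rose in R40A (0.50 ± 0.09, limma adjusted p = 0.0024), N108A (0.46 ± 0.09, limma adjusted p = 0.0029) and G44A (0.33 ± 0.09, limma adjusted p = 0.0106). The THI7 calls were lost without hht2-wt a in N108A and in G44A, in the second also without G44A b. In R53A THI7 was not called, but its change of 0.41 was larger than that in G44A. Its R53A cultures read 0.60 and 0.70, against 0.13 and 0.35 in hht2-wt. Of all probes only 0.673% passed in R53A. NRT1, a further relative that carries nicotinamide riboside, fell in Q5A (-0.71 ± 0.05, limma adjusted p = 1.64e-06) and Y98A (-0.35 ± 0.05, limma adjusted p = 0.000241), and rose in V81A (0.27 ± 0.05, limma adjusted p = 0.00123). TPC1, the mitochondrial carrier of thiamine diphosphate, fell in G44A (-0.32 ± 0.05, limma adjusted p = 0.000151).

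PHO3, an acid phosphatase that frees thiamine from its phosphates outside the cell, had 2 probes that gave the same directions. At its second probe PHO3 fell in Y98A (-1.13 ± 0.13, limma adjusted p = 1.3e-05) and V81A (-0.68 ± 0.13, limma adjusted p = 0.000686), and rose in N108A (0.67 ± 0.13, limma adjusted p = 0.00144). The first PHO3 probe read -1.08, -0.51 and 0.57 in these mutants. Its calls were lost without V81A b or either hhf2-wt culture in V81A, and without any of the 4 cultures in N108A. The Y98A cultures a and b of PHO3 lay apart, at -0.54 and 0.05 on the second probe, against 0.94 and 0.82 in hhf2-wt. In G44A and K44A only the second of the PHO3 probes was called.

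Among genes of synthesis and regulation, PET18, similar to part of THI20, rose in G44A (0.79 ± 0.08, limma adjusted p = 5.58e-06), R40A (0.55 ± 0.08, limma adjusted p = 0.000565) and N108A (0.46 ± 0.08, limma adjusted p = 0.00137). It also rose in K44A (0.38 ± 0.08, limma adjusted p = 0.00335), a call lost without hhf2-wt a. PET18 fell in V81A (-0.35 ± 0.08, limma adjusted p = 0.00457), a call lost without hhf2-wt b. In Y98A PET18 read 0.24 ± 0.08 (limma adjusted p = 0.0447), a call lost without Y98A a or hhf2-wt a. THI3, a regulator that binds thiamine diphosphate, fell in V81A (-0.49 ± 0.06, limma adjusted p = 2.91e-05) and rose in R40A (0.37 ± 0.06, limma adjusted p = 0.00136). THI80, which makes the diphosphate, fell in N108A (-0.43 ± 0.07, limma adjusted p = 0.000559). PDC2, a regulator, read -0.15 there, a call lost without N108A a or either hht2-wt culture. That call was also lost without background correction, with median centring, the value table or only the 4 arrays, and without the replicate block. PDC2 fell in G44A as well (-0.18 ± 0.05, limma adjusted p = 0.0101). The G44A call was lost with median centring or only the 4 arrays, and without G44A b or hht2-wt a. THI80 also read -0.21 in G44A and -0.20 in K44A, calls lost without G44A b or hht2-wt a and without any of the 4 K44A and hhf2-wt cultures. It was called lower in Y98A too (limma adjusted p = 0.00751), at -0.18 and -0.31 against 0.06 and 0.02 in hhf2-wt. That call was lost without hhf2-wt b or the replicate block. THI22 fell in Y98A (-0.50 ± 0.06, limma adjusted p = 3.03e-05); THI6, THI21 and THI73 were also called in at least 1 mutant, with changes of at most 0.36 in size.

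**Figure D4:**
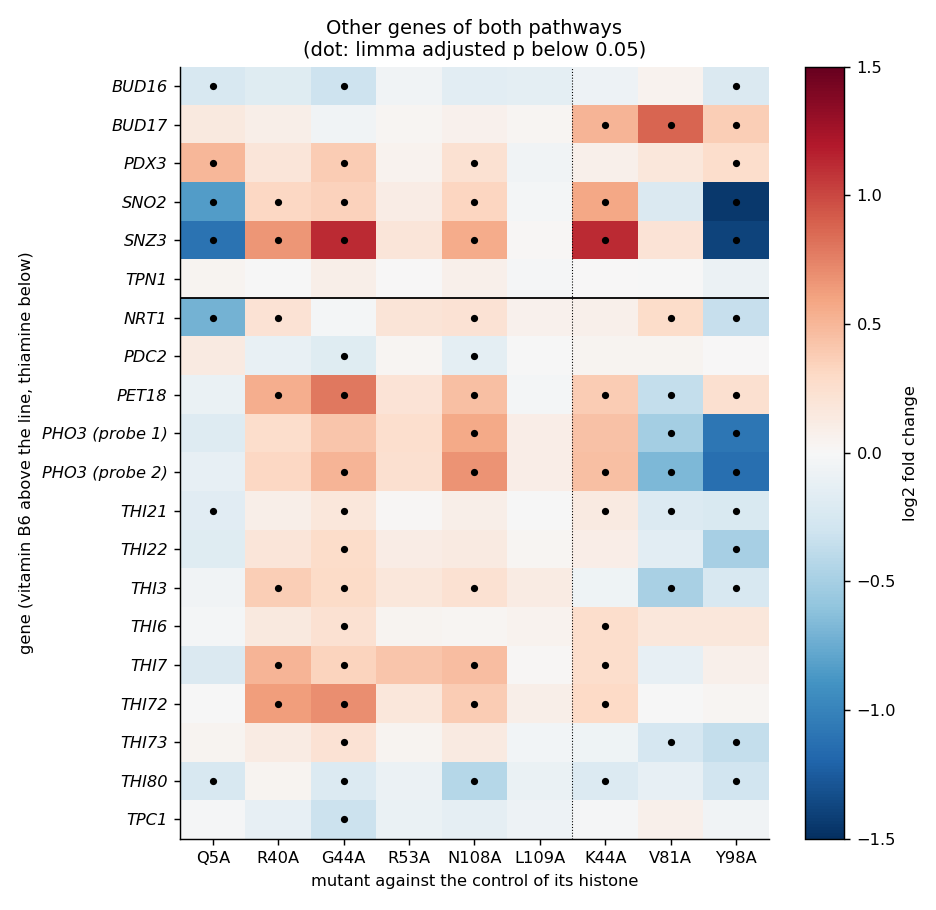
Changes of the other 20 probes of vitamin B6 (above the line) and thiamine (below) in the 9 mutants, coloured by log2 fold change over the control of the same histone; a dot marks a limma adjusted p below 0.05. SNZ3 and SNO2 are lowest in Y98A and Q5A, and R53A and L109A carry 0 dots.

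Named probes other than the 6 genes were ranked by the correlation of their 11 strain means with those of 4 of the genes. FMP30 came first for both SNZ1 (0.98) and SNO1 (0.97), although its means spanned only -0.24 to -0.10. HEM2 (0.93) and YTP1 (0.899) followed for SNZ1, and DGA1 (0.91) and ADH3 (0.90) for SNO1. For THI11 the first were YOL162W (0.97), AAD14 (0.97) and IMA4 (0.97). Among all other probes, unnamed ones and the rest of the 6 genes included, 68 lay above 0.9 for THI11 and 4 for SNZ1. For THI4 the first were BUB2 (0.95), YLR225C (0.94) and LDO16 (0.94). With 11 points and 5326 named probes, these names are a description of these strains only.

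Stress and amino-acid genes changed in some of the same mutants, and their part in the values of the 6 genes was not tested. Of 27 stress and stationary-phase genes, 27 rose in G44A, 22 in N108A, 20 in R40A and 11 in Y98A, with 0 lower in these 4. K44A had 8 higher and 1 lower, V81A 3 and 11, and Q5A 0 and 5, by a limma adjusted p below 0.05. Over all probes the shares higher were the 23.9%, 16.6%, 9.8% and 13.9% given above for G44A, N108A, R40A and Y98A, and those lower 17.1% in V81A and 11.2% in Q5A. In K44A 15.9% of all probes were higher and 13.6% lower, and 16.8% were higher in V81A and 7.7% in Q5A. The median change of the 27 was 1.35 in G44A, 0.73 in N108A, 0.65 in R40A, 0.42 in Y98A, 0.01 in K44A, -0.23 in Q5A and -0.45 in V81A. SNZ1 had a change above 1 in G44A, N108A, R40A and Y98A, where this median was 0.42 to 1.35. The SNZ1 change was also above 1 in K44A and V81A, where the median was 0.01 and -0.45. RTN2 was among the 2 largest increases of this list in G44A (2.32), N108A (1.62) and R40A (1.29), HXK1, a hexokinase, in G44A (2.24) and R40A (1.37), and GND2 in N108A (1.42). In V81A the largest changes were -2.33 in YGP1 and -1.37 in HSP12, against 0.90 in HSP78 and 0.32 in GRE1.

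Of 34 targets of Gcn4, the activator of amino-acid synthesis, 28 rose in V81A, 25 in Q5A and 16 in Y98A, with 1, 1 and 3 lower. The 1 lower gene in V81A was HIS3, the marker described above, which was also among the 3 in Y98A. K44A had 3 higher and 3 lower, R40A 1 and 6, G44A 4 and 9 and N108A 3 and 11. The shares of all probes higher were 16.8% in V81A, 7.7% in Q5A and 13.9% in Y98A, and those lower 17.1%, 11.2% and 16.7%. In K44A 15.9% of all probes were higher and 13.6% lower, and in R40A 9.8% and 4.95%. In G44A these shares were 23.9% and 22.4%, and in N108A 16.6% and 12%. LEU4 and LYS9 had the largest increases in V81A (1.52 and 1.46), and LYS9 and LYS1 in N108A (0.55 and 0.48). In N108A the largest decreases were those of ARG3 (-0.78) and ARG1 (-0.63), in G44A those of ILV3 (-0.55) and ARO4 (-0.54), and in R40A those of LYS1 (-0.50) and ILV2 (-0.30). The increases in G44A were at most 0.30 in ARG4 and 0.28 in LYS9, and the 1 in R40A was 0.28 in HIS4.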

How the data were processed

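Expression was read from 22 arrays of 11 strains, 2 cultures each. Per the file headers, the authors' deposited scanner output gives spot intensity and surrounding background for Cy5 and Cy3, with no subtraction. Log2 ratios made by the authors, in a deposited value table, served as an alternative; its columns for hhf2-wt a, L109A a and Q5A a (3 arrays) ran against the scanner ratios and were turned. Arrays were grouped by their labels, and no slide or scan batch was given in the sources used here. Depth does not apply to arrays; their number limits the precision.

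Background was corrected by normexp (offset 50) and ratios were normalised within arrays by global loess, with control spots at weight 0. All ratios were expressed as strain over reference, and the 2 spots of a probe averaged. Changes are thus relative to the bulk of probes on an array. limma 3.58.1 in R 4.3.3 fitted a mean for each strain and a dye term to all 22 arrays, with Benjamini-Hochberg adjustment over 6388 probes and a threshold of 0.05. All strains share 1 estimate of spread (10 residual and 4.16 prior degrees of freedom). Dye and culture letter coincide, so the dye term is the replicate block; culture deviations correlated by over 0.1 in 52 of 55 strain pairs (lowest -0.125). The labels call the cultures independent, and the p-values measure the spread between them. On simulated data for N108A the fit called 94% of 100 genes shifted by 0.5, beside 11 false calls.

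Of the probes, 5326 carried a gene name. The R64 gene table gave names, chromosomes and neighbours only, since the array files name no build. A probe counted as above background 2.6 background SDs over it. The genes and lists were chosen with earlier results of these data known. Values are given for every gene of the 6 and, of other pathway genes, for the 3 largest called changes in each direction per mutant, and of the other lists for the 2 largest in N108A, R40A, G44A and V81A, with some others chosen after their values were seen; the nearest genes by likeness are the 3 highest correlations. Alternatives were another background correction, print-tip loess, median centring, a filter on dim probes, the value table, other controls, no replicate block, only the 4 arrays compared, no chromosomes I, VIII and XIV, and each culture left out.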

Additional observations from a re-analysis of the deposited data

How the results depend on the processing

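Over the alternatives, 676 values of the 6 genes stayed within 1 SD of the reported value, 80 moved by more and 0 reversed a called sign. Of the 80 that moved, 42 came from leaving out a culture and 18 from using the control of the other histone. When a culture was left out, the count of changed pathway probes other than the 6 genes was 12 to 14 in place of 16 in G44A. It was 5 to 7 in place of 7 in R40A and 6 to 8 in place of 8 in V81A. In Y98A it was 10 to 14 in place of 14, and in L109A it stayed at 0. For Q5A the count of 7 became 4 with median centring and 4 with only the 4 arrays compared, and was 4 to 7 when a culture was left out. For N108A the 12 became 7 with median centring and 6 to 10 when a culture was left out, and for K44A the 10 became 5 to 6. R53A, with 0, had 1 against both controls and 7 with only its 4 arrays, in a fit with its own spread. Without the replicate block (no paired dye and culture term) the count was 5 in Q5A, 10 in N108A, 7 in K44A and 14 in G44A, and within 1.5 times the reported count in every mutant. Between the controls limma called 0 of the 6 genes under each alternative run, and their lowest adjusted p was 0.982. Median centring ended the calls of SNZ1 in Q5A, THI20 in N108A, THI2 in V81A and THI11 in Y98A. The value table ended that of THI4 in Y98A, and the fit of only 4 arrays those of THI4 in Q5A, THI20 in N108A and THI2 in V81A. The THI20 call in N108A was also lost without the replicate block. With 2 cultures a strain, small changes rest on the spread shared over strains. The cause of these differences was not tested.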

Other observations

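Of 37 genes for enzymes that use pyridoxal phosphate, 8 rose and 12 fell in G44A, 13 rose and 7 fell in V81A, 10 rose and 4 fell in Q5A, 9 rose and 3 fell in Y98A, 8 rose and 3 fell in N108A, 5 rose and 7 fell in K44A and 3 rose and 5 fell in R40A. Limma called 0 in R53A and L109A, with 6 and 2 at an unadjusted p below 0.05. Of all probes 23.9% rose and 22.4% fell in G44A, 16.8% and 17.1% in V81A, 7.7% and 11.2% in Q5A, 13.9% and 16.7% in Y98A, 16.6% and 12% in N108A, 15.9% and 13.6% in K44A and 9.8% and 4.95% in R40A. The median of the 37 was between -0.07 in G44A and 0.12 in Q5A and V81A. In G44A, GPH1, the glycogen phosphorylase, rose (1.87 ± 0.21, limma adjusted p = 9.15e-06), as did GAD1, glutamate decarboxylase (1.31 ± 0.16, limma adjusted p = 1.82e-05), while CHA1, the serine and threonine deaminase, fell (-1.10 ± 0.12, limma adjusted p = 6.6e-06) and so did SHM2, a serine hydroxymethyltransferase (-0.55). GPH1 and GAD1 also had the largest increases in R40A (1.16 and 0.52), where GCV2 and SHM2 fell by 0.49 and 0.45. CHA1 rose in N108A (1.06 ± 0.12, limma adjusted p = 2.69e-05), and so did ARO9, an aromatic aminotransferase (0.77 ± 0.07, limma adjusted p = 3.43e-06), while ARG8 and CYS4 fell by 0.55 and 0.36. In V81A, CAR2, ornithine transaminase, rose (1.15 ± 0.10, limma adjusted p = 3.8e-07), as did BAT2 (0.66), and GAD1 fell (-0.71 ± 0.16, limma adjusted p = 0.00286), as did UGA1 (-0.50).

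Of 10 genes for thiamine diphosphate enzymes, 4 rose and 0 fell in G44A, 2 rose and 0 fell in each of N108A, K44A and Y98A, 2 rose and 1 fell in R40A, 2 rose and 2 fell in Q5A and 1 rose and 1 fell in V81A. Limma called 0 of 10 in R53A and L109A, with 2 and 0 at an unadjusted p below 0.05. The shares of all probes in the same mutants are those given for the pyridoxal phosphate enzymes. ARO10, a phenylpyruvate decarboxylase, rose in G44A (1.17 ± 0.08, limma adjusted p = 9.84e-08), N108A (1.09 ± 0.08, limma adjusted p = 7.56e-07), K44A (0.99 ± 0.08, limma adjusted p = 1.1e-06), Y98A (0.50 ± 0.08, limma adjusted p = 0.000279), R40A (0.49 ± 0.08, limma adjusted p = 0.000865) and Q5A (0.29 ± 0.08, limma adjusted p = 0.0219). TKL2, the minor transketolase, rose in G44A, N108A, R40A, K44A and Y98A (0.83, 0.51, 0.44, 0.35 and 0.34) and fell in Q5A (-0.47 ± 0.05, limma adjusted p = 2.74e-05) and V81A (-0.18 ± 0.05, limma adjusted p = 0.013). ILV2, acetolactate synthase, rose in V81A (0.71 ± 0.09, limma adjusted p = 2.68e-05) and Q5A (0.36 ± 0.09, limma adjusted p = 0.0148) and fell in R40A (-0.30 ± 0.09, limma adjusted p = 0.0413). The median of the 10 was 0.12 in G44A and 0.09 in V81A.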
